A study of Mus musculus with 15 samples.

Results

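BMP signalling and its Id target genes were examined in mouse embryonic stem cells (ESCs) of the E14 line (129/Ola background) by RNA-seq of rRNA-depleted total RNA. The members were 10 genes taken by name from a table of 26061 genes: the ligands Bmp4 and Bmp7, the receptors Bmpr1a and Bmpr2, the signal transducer Smad1, the inhibitor Smad6, and Id1, Id2, Id3 and Id4. All 10 were found in the table and all 10 passed the filter on low values. The 3 groups held 5 libraries each and differed in the short hairpin RNA (shRNA) that the cells carried, which was a non-targeting sequence (shScr), an shRNA against Tet1 (shTet1) or an shRNA against Tet2 (shTet2). All groups were infected with pLKO.1 lentivirus, selected with puromycin for 3 days and grown without feeders in LIF and 15% serum. Each TET was targeted by 1 hairpin, so that an effect of the hairpin cannot be told apart from one of the lost TET. Nothing in the labels says whether replicates were separate infections, and p-values therefore measure the spread between these libraries.

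Bone morphogenetic proteins (BMPs) are secreted ligands that bind pairs of type I and type II receptor kinases. The activated type I receptor phosphorylates SMAD1, SMAD5 or SMAD9, which enter the nucleus with SMAD4 and switch on target genes, among them the Id genes. SMAD6 and SMAD7 inhibit the receptors and are themselves induced by the pathway. Id proteins hold a helix-loop-helix but no DNA-binding region, and they sequester the E proteins, which are partners of differentiation factors. In mouse ESCs, BMP from serum acts through Id genes together with LIF to keep cells self-renewing. BMP also restrains ERK signalling through the phosphatase DUSP9.

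The libraries held 15258291 to 35432425 reads in genes. Expression is given as the deposited variance-stabilised value, which approaches log2 for well-covered genes and has a minimum of 4.25 that stands for 0 reads. Tet1 differed by −1.84 in shTet1 and Tet2 by −1.90 in shTet2 against shScr (adjusted p of 0.000228 and 3.67e-07 by limma). The label of ESCs was checked with 6 markers (Pou5f1, Nanog, Sox2, Zfp42, Esrrb and Klf4), which summed to 61377 to 83491 normalised reads per library. Summed markers of other cell types lay below these, at 42.2 to 228 normalised reads for trophoblast, 36.6 to 243 for mesoderm, 59.0 to 209 for fibroblasts, 182 to 948 for primitive endoderm and 348 to 1461 for neural ectoderm. The neural sum was mainly Nes (group means of 532 to 798) and Pax6 (117 to 175), while Neurog2 and Olig2 had 0 to 3 reads per library. In bulk RNA, fewer cells of a type and less RNA per cell cannot be told apart. Within each group, replicates 1 and 2 were set apart from replicates 3 to 5 along the leading principal component of the deviations from group means (38.1% of variance). No batch is named in the labels, and values are given within both sets of replicates where they bear on a result. Reads in receptor genes of the nose (olfactory and vomeronasal), given in ppm of gene reads, made up 53.3 to 63.4 in shScr replicate 4, shTet1 replicates 3 and 4 and shTet2 replicate 4, against 9.43 to 26.3 in the other 11 libraries.

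Levels of different genes were compared as normalised reads per kb of exon. In control cells the type I receptor gene Bmpr1a and the Id genes Id2, Id1 and Id3 were highest, with 328 ± 38.9, 317 ± 132, 289 ± 88.8 and 271 ± 72.5 normalised reads per kb (n = 5 per group, SD). Neighbours among these 4 did not differ beyond their spread. Bmp4 followed with 146 ± 50.9, Bmpr2 with 83.5 ± 21.0, Smad1 with 58.6 ± 13.5 and Id4 with 52.7 ± 17.7. Smad6 (20.6 ± 9.47) and Bmp7 (9.78 ± 3.04) were lowest. Ranges of all neighbours overlapped, although Id3 was above Bmp4, Bmp4 above Bmpr2, Bmpr2 above Smad1, Id4 above Smad6 and Smad6 above Bmp7 in 5 of 5 shScr libraries. Upon TET1 depletion the order of the means among the upper genes was another one. Bmpr1a stood at 426 ± 33.4 normalised reads per kb in shTet1, while Id2 stood at 166 ± 42.0 and Id3 at 163 ± 60.8, beside Bmp4 at 176 ± 48.0. The ranges of Id2, Id3 and Bmp4 in shTet1 overlapped. In shTet2, Id2 had the highest mean of the 10 at 399 ± 85.9. Its range there (306 to 506) overlapped those of Id1 (198 to 491) and Bmpr1a (272 to 371).

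**Figure D1:**
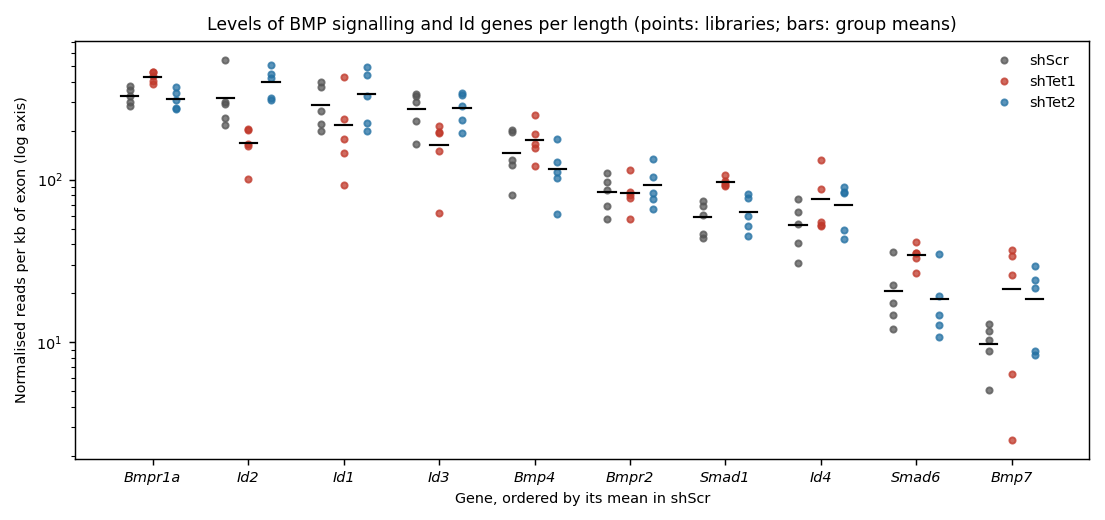
Normalised reads per kb of exon (log axis) of the 10 genes, ordered by their mean in shScr, with 1 point per library (n = 5 per group) and bars at group means. Bmpr1a and Smad1 stand highest in shTet1, where all 5 points lie above those of the other groups, and Id2 stands lowest there, with a mean of 166 against 317 in shScr and 399 in shTet2.

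To ask how BMP signalling genes respond to the loss of each TET, the values were compared between groups in 1 limma fit over all 15 libraries and 19490 genes. Against shScr, 0 of 10 members passed a Benjamini-Hochberg adjusted p under 0.05 in shTet1, where 0.0718% of all genes did, and 0 of 10 in shTet2, where 0.39% did. At an unadjusted p under 0.05 the counts were 5 members in shTet1 (11.8% of all genes) and 0 in shTet2 (11.6%). The direct comparison of the knockdowns gave 2 of 10 members, Id2 higher and Bmpr1a lower in shTet2 (4.24% of all genes, with 2.88% higher and 1.36% lower). Same-numbered libraries of shTet1 and shScr, and of shTet2 and shTet1, deviated together across all genes. The replicate number was therefore also used as a block. However, shTet1 replicates 1 and 3 correlated best with shTet2 replicates 2 and 5. The split of replicates 1 and 2 from 3 to 5 would also make same-numbered libraries deviate together, so that pairing by number was not established. With this block 4 of 10 members passed in shTet1 against shScr (4.8% of all genes), Smad1 and Bmpr1a higher (2.54%) and Id2 and Id3 lower (2.26%). In shTet2 against shTet1, 7 of 10 passed with it (11.2% of all genes), Id1, Id2 and Id3 higher (6.52%) and Bmp4, Bmpr1a, Smad1 and Smad6 lower (4.65%). Of these, Id1, Id3, Bmp4 and Smad6 did not pass when the split of replicates 3 to 5 was the term instead of the block. For shTet2 and shScr, same-numbered libraries deviated together in 4 of 5 replicates but not in replicate 3 (r of 0.00789). The numbers were therefore not taken to pair these 2 groups, where the block gave 0 of 10 members (4.31% of all genes). The median absolute difference of the 10 members was 0.48 in shTet1 against shScr, 0.14 in shTet2 against shScr and 0.59 between the knockdowns, beside 0.16, 0.15 and 0.16 for all genes tested. The members were chosen with results of these data known, so these medians and counts describe them and are no independent evidence.

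**Figure D2:**
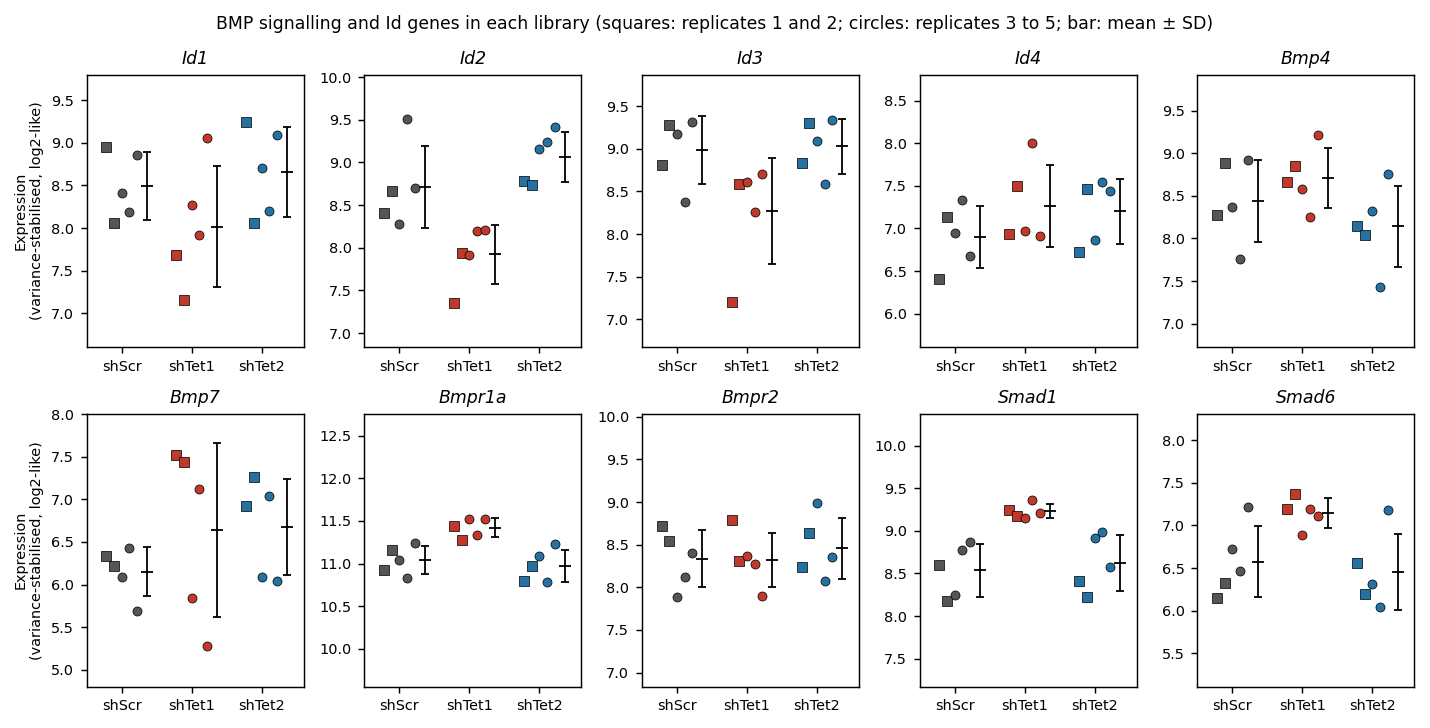
Variance-stabilised expression (log2-like units) of each gene in each library, with squares for replicates 1 and 2, circles for replicates 3 to 5, and the mean ± SD of the 5 libraries at the side of each group; every panel spans the same 3.2 units. Id2 in shTet1 (7.35 to 8.21) lies below both other groups, and Smad1 (9.15 to 9.36) and Bmpr1a (11.28 to 11.53) in shTet1 lie above them.

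The means of Id1, Id2 and Id3 were lower in TET1-depleted cells than in both other groups, and Id2 passed the test against TET2-depleted cells. Id2 (chromosome 12, 25778666 to 25780957, mm9, minus strand) was 8.40, 8.66, 8.28, 9.51 and 8.70 in shScr replicates 1 to 5. The shTet1 values were 7.35, 7.94, 7.91, 8.19 and 8.21, and those of shTet2 were 8.78, 8.73, 9.16, 9.24 and 9.41. Each of the 5 shTet1 libraries was lower than every library of the other groups, whereas shScr and shTet2 overlapped. Between shTet2 and shTet1, Id2 differed by 1.14 (95% confidence interval 0.68 to 1.61, SE 0.22, adjusted p of the limma fit = 0.00503), with an exact permutation p of 0.00794, the smallest that 5 against 5 libraries allow. Normalised Id2 reads averaged 507 ± 109 in shTet2, 211 ± 53.3 in shTet1 and 402 ± 167 in shScr (n = 5 per group, SD). Against shScr the difference in shTet1 was −0.79 (SE 0.22, −1.25 to −0.32), with the same exact permutation p of 0.00794 and a limma adjusted p of 0.143, which became 0.0120 with the replicate block. It was −0.88 within replicates 1 and 2 and −0.72 within replicates 3 to 5. In shTet2 it was 0.35 against shScr (−0.11 to 0.82).

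Id3 and Id1 were less even across replicates. Id3 (chromosome 4, 135699412 to 135701670) was 8.81, 9.28, 9.17, 8.37 and 9.31 in shScr replicates 1 to 5. In shTet1 it was 7.20, 8.58, 8.61, 8.25 and 8.70, and in shTet2 8.83, 9.30, 9.10, 8.59 and 9.34. The lowest value was that of shTet1 replicate 1, and shTet1 was below shScr and below shTet2 in 5 of 5 same-numbered pairs. The difference from shScr was −0.72 in shTet1 (SE 0.26, −1.26 to −0.18, exact permutation p = 0.0556), with a limma adjusted p of 0.256, or 0.0239 with the block. It was −1.15 within replicates 1 and 2 and −0.43 within replicates 3 to 5, and −0.45 without shTet1 replicate 1. Between the knockdowns Id3 differed by 0.76 (SE 0.26, 0.22 to 1.30, exact permutation p = 0.0238), with a limma adjusted p of 0.119, or 0.00689 with the block. It was 1.17 within replicates 1 and 2, 0.49 within replicates 3 to 5 and 0.49 without shTet1 replicate 1. In shTet2 against shScr the estimate was 0.04 (−0.50 to 0.58), which turned to −0.06 under median centring.

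Id1 (chromosome 2, 152561987 to 152563146) was 8.95, 8.06, 8.41, 8.18 and 8.86 in shScr, and 7.68, 7.16, 8.27, 7.92 and 9.05 in shTet1. In shTet2 it was 9.25, 8.05, 8.70, 8.20 and 9.09. shTet1 replicates 1 and 2 were the lowest of all libraries and shTet1 replicate 5 was above every shScr library, so that the groups overlapped. The difference in shTet1 was −0.48 against shScr (SE 0.30, −1.11 to 0.16), made up of −1.09 within replicates 1 and 2 and −0.07 within replicates 3 to 5. A test of whether these parts differ gave a limma adjusted p of 0.635. Id1 was higher in shTet2 than in shTet1 in 5 of 5 same-numbered pairs, by 0.64 (SE 0.30, 0.005 to 1.28, limma adjusted p = 0.314, or 0.0336 with the block). This difference was 1.23 within replicates 1 and 2 and 0.25 within replicates 3 to 5, and it was 0.43 without shTet1 replicate 2.

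Id4 (chromosome 13, 48356796 to 48359405) was the least abundant of the family. It ranged from 6.41 to 7.33 in shScr (median 6.94), 6.92 to 8.0 in shTet1 (median 6.97) and 6.72 to 7.54 in shTet2 (median 7.44). Its differences from shScr were 0.37 in shTet1 (−0.14 to 0.87) and 0.31 in shTet2 (−0.20 to 0.81), neither past the threshold with or without the block. Exons of A330033J07Rik on the opposite strand covered 10.3% of its exonic bases, and the use of strand in counting was not stated. No 50-base stretch of Id1, Id2, Id3 or Id4 was shared with another protein-coding transcript. The same held for Bmpr1a, Bmpr2, Smad1 and Smad6, whereas 0.291% of the stretches of Bmp4 and 0.0282% of those of Bmp7 were shared.

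Because Id2 and Bmpr1a were called, and as SMAD complexes bind GC-rich elements at BMP target genes, the promoters of the members were searched for GGCGCC, a palindrome known from BMP-responsive regions. RefSeq promoters (GRCm38.p6, 250 bases before to 50 after the start) were held for 8 of the 10 genes, without Id1 and Bmp7. The 4 with a match were Id2, Id4, Bmpr1a and Bmpr2, each with 1, whereas 12% of all 27025 promoters held it. The motif is all G and C, and the promoters were not matched for base composition, so that no enrichment can be read from these shares. The 30 bases around each match are printed because both called genes hold one, on the strand of the gene, 5′ to 3′, with the motif in capitals. They lie at chr12:25096306-25096335 (minus strand), chr13:48260956-48260985 (plus), chr14:34502727-34502756 (minus) and chr1:59764162-59764191 (plus), in the order given.
Id2: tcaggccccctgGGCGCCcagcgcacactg
Id4: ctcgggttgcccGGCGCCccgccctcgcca
Bmpr1a: tgcgcgcgcgccGGCGCCtcttgctcgccc
Bmpr2: ctccggcggccgGGCGCCgctgcctgcccc
The matches begin 231, 148, 198 and 105 bases before the start. The shorter SMAD motif CAGAC, searched on both strands, had 2 matches in Id3 and 0 in the other 7 promoters, and 49.7% of all promoters held it. Genes with GGCGCC included both called members, which moved in opposite directions, and Id4 and Bmpr2, which did not pass the test. A match is a run of letters and says nothing on binding.

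The receptor genes differed from each other. Bmpr1a (chromosome 14, 35223920 to 35316527), the type I receptor to which BMP4 binds, was 10.92, 11.16, 11.04, 10.84 and 11.25 in shScr. It was 11.44, 11.28, 11.52, 11.33 and 11.53 in shTet1 and 10.79, 10.97, 11.09, 10.79 and 11.23 in shTet2. All 5 shTet1 libraries lay above all other libraries. Between the knockdowns Bmpr1a differed by −0.45 (−0.70 to −0.19, SE 0.12, limma adjusted p = 0.0473, exact permutation p = 0.00794), or 1988 ± 271 normalised reads in shTet2 against 2708 ± 212 in shTet1 (n = 5 per group, SD). This call was close to the threshold, and the adjusted p rose to 0.0512 to 0.127 in 12 of the 15 fits that left out 1 library. Against shScr (2082 ± 247 normalised reads) the difference in shTet1 was 0.38 (SE 0.12, 0.12 to 0.64, exact permutation p = 0.00794), with a limma adjusted p of 0.207, or 0.0293 with the block. It was 0.31 within replicates 1 and 2 and 0.42 within replicates 3 to 5. In shTet2 it was −0.07 (−0.33 to 0.19).

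Bmpr2 (chromosome 1, 59821481 to 59927703) encodes a type II receptor. It ranged from 7.88 to 8.72 in shScr (median 8.40), 7.90 to 8.78 in shTet1 (median 8.31) and 8.07 to 8.98 in shTet2 (median 8.35). The 3 ranges overlapped. The intervals of its differences were −0.43 to 0.42 for shTet1 and −0.30 to 0.55 for shTet2 against shScr.

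Smad1 (chromosome 8, 81862294 to 81923417) was the most even member in TET1-depleted cells. It was 8.60, 8.18, 8.25, 8.77 and 8.87 in shScr replicates 1 to 5. In shTet1 it was 9.25, 9.17, 9.15, 9.36 and 9.21, and in shTet2 8.41, 8.23, 8.91, 8.99 and 8.58. Every shTet1 library was above every other library, and the SD in shTet1 was 0.08 against 0.31 in shScr and 0.33 in shTet2. Normalised Smad1 reads averaged 564 ± 35.4 in shTet1, 341 ± 78.8 in shScr and 365 ± 89.9 in shTet2 (n = 5 per group, SD). The difference from shScr was 0.69 (SE 0.17, 0.34 to 1.05, exact permutation p = 0.00794), with a limma adjusted p of 0.103 that became 0.0126 with the block. Between the knockdowns it was −0.61 (SE 0.17, −0.96 to −0.25, exact permutation p = 0.00794). The limma adjusted p of 0.0501 was just over the threshold, and it was 0.00841 with the block. Smad1 also passed in 5 of the 15 fits that left out 1 library. It was 0.82 and 0.61 above shScr within replicates 1 and 2 and within replicates 3 to 5.

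The groups did not overlap for 3 of 10 members in shTet1 against shScr (2.62% of all genes), 0 of 10 in shTet2 against shScr (2.7%) and 3 of 10 between the knockdowns (6.04%). In both cases these were Smad1, Bmpr1a and Id2. Thus 3 of 10 members had shTet1 values outside the range of both other groups, as had 1.23% of all genes. Smad1 and Bmpr1a were higher, as in 0.657% of all genes, and Id2 was lower, as in 0.57%. The comparisons of shTet1 with shScr and of shTet2 with shTet1 share the shTet1 libraries.

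Smad6 (chromosome 9, 63800953 to 63869866), the inhibitory Smad, was 6.14, 6.32, 6.72, 6.46 and 7.21 in shScr replicates 1 to 5. In shTet1 it was 7.19, 7.37, 6.88, 7.19 and 7.11, and in shTet2 6.56, 6.19, 6.31, 6.05 and 7.18. Replicate 5 was the highest library in shScr and in shTet2, and through it the groups overlapped. Smad6 rested on few reads, 31 to 169 per library. The difference from shScr in shTet1 was 0.58 (SE 0.22, 0.11 to 1.04, exact permutation p = 0.0397, limma adjusted p = 0.298), and it did not pass with the block (0.0852). It was 1.05 within replicates 1 and 2 and 0.26 within replicates 3 to 5. Between the knockdowns it was −0.69 (SE 0.22, −1.16 to −0.22, exact permutation p = 0.0238), with a limma adjusted p of 0.0970, or 0.0238 with the block. Without shTet2 replicate 5 it was −0.87 (limma adjusted p = 0.0218).

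Of the ligands, Bmp4 (chromosome 14, 47003195 to 47010344) was 8.27, 8.88, 8.37, 7.76 and 8.92 in shScr replicates 1 to 5. In shTet1 it was 8.66, 8.84, 8.58, 8.25 and 9.21, and in shTet2 8.15, 8.05, 8.33, 7.43 and 8.75. Replicate 4 was the lowest and replicate 5 the highest library of all 3 groups, and the groups overlapped. The differences from shScr were 0.27 in shTet1 (−0.25 to 0.79) and −0.30 in shTet2 (−0.82 to 0.22), and replicate 4 weighed on both. They were 0.0985 and −0.47 without shScr replicate 4, and that of shTet2 was −0.12 without shTet2 replicate 4. Bmp4 was lower in shTet2 than in shTet1 in 5 of 5 same-numbered pairs, by 0.57 in the mean (95% confidence interval −1.09 to −0.05, exact permutation p = 0.0635). The limma adjusted p was 0.263, or 0.00762 with the block. Exons of Gm15217 on the opposite strand covered 4.00% of its exonic bases.

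Bmp7 (chromosome 2, 172693513 to 172765822) was low, with 9 to 203 reads per library. It was 6.33, 6.22, 6.09, 6.42 and 5.69 in shScr replicates 1 to 5. In shTet1 it was 7.52, 7.43, 5.84, 7.12 and 5.28, and in shTet2 6.92, 7.26, 6.09, 7.04 and 6.05. In both knockdowns replicates 1, 2 and 4 were above all shScr libraries and replicates 3 and 5 were not. The differences from shScr were 0.49 in shTet1 (−0.29 to 1.27) and 0.52 in shTet2 (−0.26 to 1.30). In shTet1 the difference was 1.2 within replicates 1 and 2 and 0.01 within replicates 3 to 5. The limma adjusted p of the change between these parts was 0.614, the lowest of the 20 such tests over the members.

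**Figure D3:**
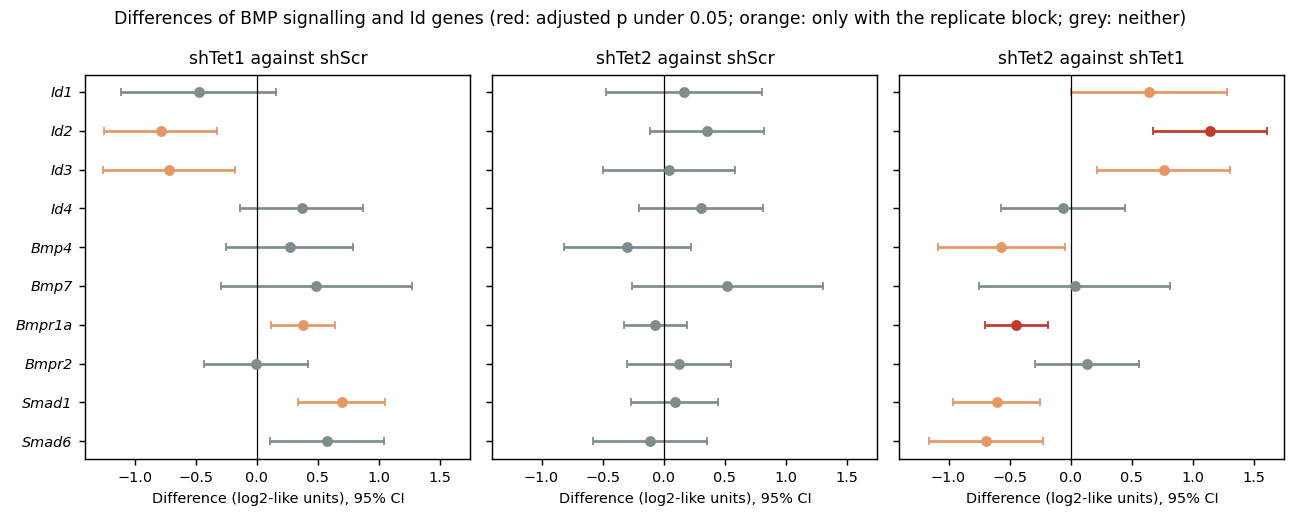
Differences of the 10 genes (log2-like units) with 95% confidence intervals from the limma fit over all 15 libraries, with 1 panel for each knockdown against shScr and 1 for shTet2 against shTet1. Id2 (1.14) and Bmpr1a (−0.45) between the knockdowns are in red, orange marks genes past an adjusted p of 0.05 only with the replicate block, and all intervals of shTet2 against shScr include 0.

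The same fit was read for 55 other genes of the pathway in 6 roles, of which 50 passed the filter. Against shScr, 0 of 50 passed in shTet1 and 0 of 50 in shTet2 (0.0718% and 0.39% of all genes), and 4 of 50 in each had an unadjusted p under 0.05 (11.8% and 11.6% of all genes). Their median difference was 0.05 in shTet1 and 0.09 in shTet2, beside 0.01 and 0.04 for all genes. Between shTet2 and shTet1, 2 of 50 passed (4.24% of all genes), Bmp15 higher and Smad7 lower, and 9 had an unadjusted p under 0.05 (15.7% of all genes). With the block 5 of 50 passed in this comparison (11.2% of all genes), adding Gata3 (0.65) as higher and Dusp9 (−0.49) and Smurf2 (−0.28) as lower. Except for the 9 genes at an unadjusted p, none of these counts was a larger share of the list than of all genes.

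Among 17 tested inhibitors, Smad7, the partner of Smad6 in blocking the receptors, averaged 10.27 ± 0.26 in shScr, 10.74 ± 0.47 in shTet1 and 10.02 ± 0.27 in shTet2 (n = 5 per group, SD). It differed by −0.72 between the knockdowns (SE 0.20, −1.14 to −0.30, limma with Benjamini-Hochberg adjusted p = 0.0478, exact permutation p = 0.0238). Its shTet2 value was lower than shTet1 in 5 of 5 same-numbered pairs, by 1.13 within replicates 1 and 2 and by 0.44 within replicates 3 to 5. The call was lost in 11 of the 15 fits that left out 1 library and without the 4 libraries of high receptor share. Against shScr its differences were 0.47 in shTet1 (0.06 to 0.89, limma adjusted p = 0.351) and −0.24 in shTet2 (−0.66 to 0.17). Grem1, which encodes the secreted antagonist Gremlin, had the lowest unadjusted p of this role in shTet1, at −0.71 (−1.28 to −0.13, limma adjusted p = 0.298, 0 to 24 reads per shTet1 library). In shTet2 it was Chrdl1, a chordin-like antagonist, at 0.54 (0.17 to 0.90, limma adjusted p = 0.205), with all 5 libraries above shScr. Skil, a repressor of SMAD activity, was the most abundant gene of the role (1254 normalised reads per kb in shScr) and differed by −0.18 and −0.06.

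Among 9 ligands tested, Bmp15, known from the oocyte, passed between the knockdowns at 0.65 (SE 0.17, limma with Benjamini-Hochberg adjusted p = 0.0359, exact permutation p = 0.0159). It rested on 0 to 24 reads per library and was at 0 in 2 shTet1 libraries, and the call was lost in 7 of the 15 fits that left out 1 library. For Gdf3, the most abundant ligand, the interval of the difference from shScr was −0.32 to 0.24 in shTet1 and −0.28 to 0.28 in shTet2. Of the 9 receptors and co-receptors, Acvr2a was the most abundant and differed by 0.01 and −0.06. The co-receptor gene Hfe2 differed by 0.51 in shTet1 and 0.49 in shTet2, and Acvrl1, a type I receptor of endothelium, by 0.59 in shTet2 (limma adjusted p = 0.358, 0.386 and 0.229). The Smad5 difference in shTet1 was −0.19 (−0.43 to 0.05), opposite in sign to that of Smad1, and Smad4, the shared partner, differed by 0.20 (−0.10 to 0.49). In shTet2 these were 0.03 and 0.04, and Smad9 differed by 0.38 (−0.03 to 0.79).

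Of 9 further targets, Dusp9 was the most abundant (634 normalised reads per kb in shScr). It averaged 10.77 ± 0.26 in shScr, 10.74 ± 0.24 in shTet1 and 10.25 ± 0.14 in shTet2 (n = 5 per group, SD). Its difference from shScr in shTet2 was −0.51 (SE 0.15, −0.82 to −0.20, exact permutation p = 0.0159, limma adjusted p = 0.141). Msx1 differed by −0.34 in shTet1 (−0.66 to −0.02, limma adjusted p = 0.395), where it had only 2 to 5 reads per library. The E protein genes Tcf3 and Tcf12 differed by 0.13 and 0.15 in shTet1 and by 0.30 and 0.14 in shTet2, with intervals that included 0.

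**Figure D4:**
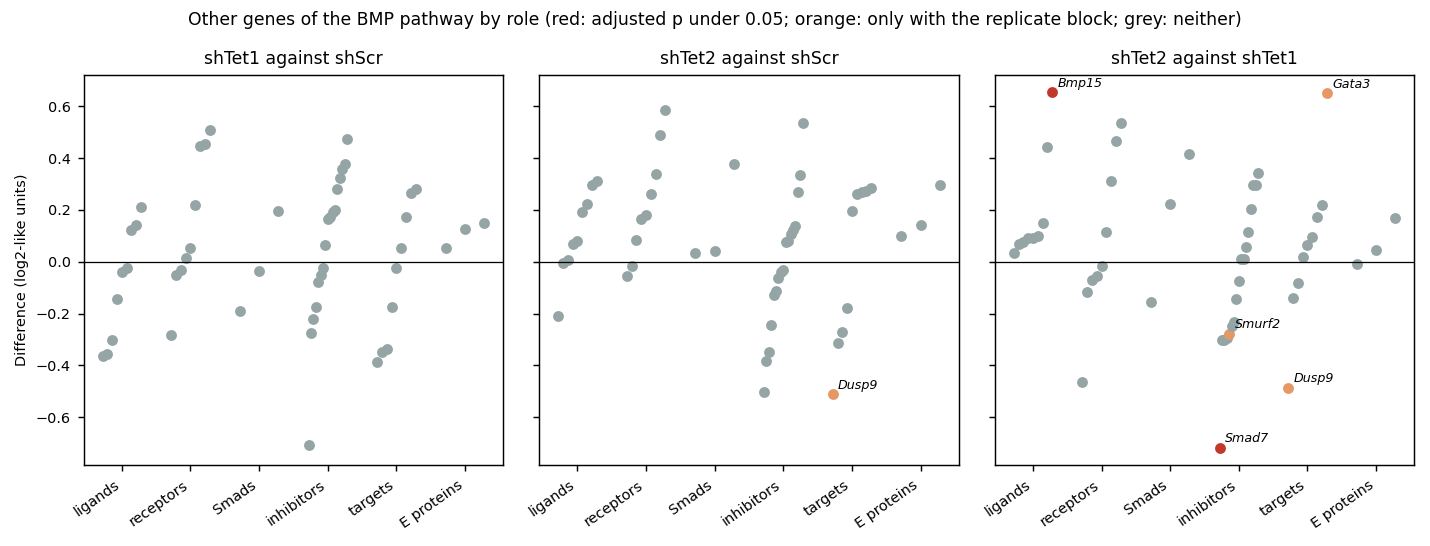
Differences (log2-like units) of the 50 tested pathway genes outside the 10 members, 1 point per gene, grouped by role, for the 3 comparisons. Red points (Bmp15 at 0.65 and Smad7 at −0.72 between the knockdowns) pass an adjusted p of 0.05 in limma, orange points pass only with the replicate block, and grey points pass neither.

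Markers of other cell types were set beside these values. The summed primitive endoderm markers were 575 to 948 normalised reads in shScr, 364 to 647 in shTet1 and 182 to 454 in shTet2, with 0 of 6 genes called in each comparison, and the ESC markers summed to 68899 to 76648, 74964 to 83491 and 61377 to 69564 in the same order, with 0 of 6 called. Trophoblast markers (4 of 5 found) lay at 42.2 to 151, 129 to 228 and 81.6 to 205, with 1 of 4 called lower in shTet2 than in shTet1 (Eomes). Mesoderm markers lay at 36.6 to 173, 74.7 to 115 and 93.0 to 243, neural markers (4 of 5 found) at 348 to 1098, 504 to 1086 and 542 to 1461, and fibroblast markers at 59.0 to 190, 107 to 156 and 153 to 209, with 0 called. Their part in the Id and BMP results was not tested. Without the 4 libraries of high receptor share, Id2 differed by 1.18 between the knockdowns (limma adjusted p = 0.0183), and Bmpr1a by −0.39 (limma adjusted p = 0.251).

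Across the 15 libraries, the genes with the pattern most like that of Id1 were Ip6k2, Zfp428, Aplf, Atcay and Dusp27, with Pearson's r of 0.902, 0.901, 0.846, 0.843 and 0.842 among 10642 genes compared. For Bmp4 they were Dnmt1, Kctd10, B3galnt2, Dse and Asph, with r of 0.961, 0.948, 0.931, 0.927 and 0.925. These values are descriptions over libraries that share groups, depth and the split of replicates.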

How the data were processed

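The authors trimmed single-end reads with Trim Galore 0.3.3, aligned them to mm9 with TopHat2 2.0.9, keeping 1 position per read, counted reads per gene in Seqmonk and normalised with DESeq2. The deposited gene table holds their variance-stabilised values on a log2-like scale. Undoing the transformation gave whole reads (within 0.01) for 100% of values, from which reads and normalised reads were recovered. The deposited repeat table was not used. Differences were computed with limma 3.58.1 in R 4.3.3 (lmFit, eBayes with trend) over 15 libraries, with the hairpin as the only term, on 19490 genes above the minimum in at least 5 libraries, with Benjamini-Hochberg adjustment over all of them. An exact permutation test of 5 against 5 libraries, unadjusted, was added for single genes. In simulated data for shTet1 against shScr (19490 genes), 84% of 100 genes changed by 1 log2 unit and 99% of 100 changed by 2 were recovered. The changed genes were well covered, and libraries were simulated as independent, without the split of replicates. The real comparison called 14 genes, which makes its adjusted threshold stricter. These shares therefore do not give the power for the members.

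All 10 members were named. Other pathway genes were named if called, or as the most abundant or lowest-p gene of their role. Genes called only with the block were also named, after their values were seen. Members and lists were chosen with earlier results of these data known. Genes most like Id1 and Bmp4 were sought among symbols whose mean was at least 2 units over the minimum. Same-numbered libraries correlated in their deviations by 0.374 to 0.657 for shTet1 and shScr and by 0.330 to 0.731 for shTet2 and shTet1, and these libraries were treated as paired by number. For shTet2 and shScr they correlated by 0.00789 to 0.769 (median 0.569), against a median of 0.5 for shTet1 and shScr. Because of the low value, that of replicate 3, the numbers were not taken to pair shTet2 with shScr. The lowest value for shTet2 and shTet1, 0.330, was also that of replicate 3. The block was nevertheless fitted over all 3 groups. Numbers that pair shTet1 with both other groups would also pair shTet2 with shScr. The pairing was therefore not established, and calls made only with the block depend on it. Within groups, libraries correlated by 0.977 to 0.995 and the chi-square per degree of freedom was at least 22.6, so that none was a copy. Positions and exon lengths are from GENCODE vM1 (mm9), promoters from RefSeq (GRCm38.p6). Alternatives were the filter, trend, libraries fitted, scaling, weights, block, batch, receptor share, limma-voom on recovered reads and leaving out each library.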

Additional observations from a re-analysis of the deposited data

How the results depend on the processing

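In shTet1 against shScr, where 0 members were called, 4 were called with the replicate block, 2 with replicates 3 to 5 as a term and 3 with the block and median centring, and 0 under the other alternatives. Some of these others called few or none of all 19490 genes. The number was 0 within replicates 3 to 5 and 1 without the 4 libraries of high receptor share. It was 1 to 171 when 1 library was left out, beside 14 in the main fit. Where so few genes were called at all, a count of 0 members says little on the members. In shTet2 against shScr the count of members was 0 under all alternatives, with 1 of all genes called within replicates 3 to 5. In shTet2 against shTet1, 2 members were called, beside 827 of all 19490 genes. The count was 1 without the variance trend (846 of all genes) and 7 with the block (2178). It was 0 within replicates 1 and 2 (0) and 0 within replicates 3 to 5 (143). With limma-voom on recovered reads it was 4 (Bmpr1a, Id2, Smad1 and Smad6, beside 901 of all genes). It was 1 without the 4 libraries of high receptor share (345) and 6 with the block and median centring (2278). When 1 library was left out it was 1 to 3 (512 to 902). Within replicates 1 and 2, 0 of 19490 genes were called in any comparison, so that this fit could show no call. Smad1 was called in 9 of the 15 other alternatives, among them 2 in which Bmpr1a was lost (only the 2 groups compared, and median centring). Id2 kept its call in all 15 fits that left out 1 library (limma adjusted p 0.00118 to 0.0168). Leaving aside the fit within replicates 1 and 2, the adjusted p over the alternatives was 0.000153 to 0.0881 for Id2, 0.00407 to 0.356 for Bmpr1a and 0.00328 to 0.456 for Smad1.

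For the 50 other pathway genes in shTet2 against shScr, 1 was called in each of 3 alternatives, each time Dusp9. These were array weights (283 of all 19490 genes), the block (limma adjusted p = 0.0143, 840 of all genes) and the block with median centring (855). In shTet2 against shTet1, where 2 were called, the count was 1 without the filter (740 of 26061 genes) and 1 with the stricter filter (618 of 12039). Of 19490 genes, other alternatives called the numbers in brackets. The count was 1 without the trend (846), 1 with only the 2 groups compared (771), 1 with median centring (764) and 0 with quantile normalisation (741). It was 5 with the block (2178), 4 with replicates 3 to 5 as a term (1263) and 4 with the block and median centring (2278). It was 0 within replicates 1 and 2 (0), 0 within replicates 3 to 5 (143) and 0 without the libraries of high receptor share (345). When 1 library was left out it was 0 to 2 (512 to 902). Smad7 was lost without the filter, without the trend, with 2 groups, with quantile normalisation, within each set of replicates and without the libraries of high receptor share. Bmp15 was lost without the filter, with the stricter filter, with either scaling, within each set and without those libraries. Median centring moved all differences by −0.052 in shTet1 and −0.108 in shTet2 against shScr and by −0.056 between the knockdowns.

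Signs reversed for small differences that had not passed the test. With median centring, with or without the block, Id3 (−0.0650) and Smad1 (−0.0193) in shTet2 against shScr and Bmp7 (−0.0230) in shTet2 against shTet1 turned negative. Array weights gave −0.0066 for Id3 and −0.0151 for Smad1 in shTet2 against shScr, and 0.0651 for Bmpr2 in shTet1 against shScr. Without the libraries of high receptor share, Id3 was −0.000597 in shTet2 against shScr, and Id4 was 0.00402 and Bmp7 −0.17 in shTet2 against shTet1. Quantile normalisation gave −0.05 for Bmp7 in shTet2 against shTet1 and 0.0074 for Bmpr1a in shTet2 against shScr. Bmpr2 in shTet1 against shScr was 0.0140 with receptor share as a covariate, 0.0409 within replicates 3 to 5 and 0.0057 with limma-voom. Within replicates 1 and 2, Bmpr2 was −0.19, Smad1 −0.0753 and Smad6 0.14 in shTet2 against shScr, and Bmp7 was −0.39 and Bmpr2 −0.11 in shTet2 against shTet1. Leaving out 1 library gave −0.11 to 0.15 for Id3, −0.0087 to 0.22 for Bmpr2, −0.0032 to 0.19 for Smad1 and −0.30 to 0.0457 for Smad6 in shTet2 against shScr, −0.12 to 0.10 for Bmpr2 in shTet1 against shScr, and −0.15 to 0.12 for Id4 and −0.31 to 0.25 for Bmp7 in shTet2 against shTet1. The causes were not tested. Low read numbers limit Bmp7, Smad6 and Bmp15. The same holds for Msx1, Grem1 and Gata3, with 2 to 5, 0 to 24 and 0 to 9 reads per shTet1 library. Hfe2, Acvrl1, Smad9 and Chrdl1 were also low, with 7 to 46, 8 to 34, 2 to 32 and 5 to 31 reads per shScr library.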
